A study of Homo sapiens with 3 samples.

Results

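The lung lineage and surfactant genes described here are 10 genes that mark epithelial cells of the lung: NKX2-1, FOXA1, FOXA2, SFTPB, SFTPC, SFTPD, NAPSA, SCGB1A1, MUC1 and AGER. They were found by gene symbol in the platform annotation, which gave them 24 probe sets that name no other gene, out of 54675 probe sets and 19775 genes on the Affymetrix HG-U133 Plus 2.0 arrays. The cells were NCI-H1650, a human cell line from a lung adenocarcinoma, labelled as lung cancer. The control array held RNA of control cells, and the labels state neither a vehicle nor the time of its collection. The other arrays held RNA of cells exposed to 40 μM colossolactone H, a triterpenoid of the fungus Ganoderma colossum, for 12 h or for 24 h. All cultures were in RPMI-1640 with fetal calf serum. Each group was 1 array, so no value below has a replicate error and no difference was tested.

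NKX2-1 is the homeodomain factor that sets the lung lineage, and with the forkhead factors FOXA1 and FOXA2 it switches on surfactant and secretory genes in the alveolus and airway. Alveolar type 2 cells secrete surfactant, whose proteins SFTPB and SFTPC lower surface tension and whose collectin SFTPD binds microbes, and their aspartic protease NAPSA helps to mature the surfactant propeptides. SCGB1A1 is the secretoglobin of airway club cells, AGER is a receptor abundant on alveolar type 1 cells, and MUC1 is a membrane mucin of many epithelia. NKX2-1 and NAPSA are stained in pathology to assign an adenocarcinoma to the lung.

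In this line 16 of the 24 probe sets of the members gave little signal, and the bright member was MUC1. The median signal of all probe sets was 61.7 on the control array, 60.6 after 12 h and 61.8 after 24 h, in linear MAS5 units. A probe set is called near the median here where it lay above it by up to 2 times, and at background where it lay at or below it. Of the 24 probe sets, 16 were at or below the median on all 3 arrays, and 4 were over 2 times the median on all 3. Among all 54675 probe sets, 25425 and 21031 were in these classes. The 16 include every probe set of NKX2-1, FOXA1, FOXA2 and SCGB1A1. The 4 belong to MUC1, which has a pair of them, SFTPB and SFTPD. The 4 that remain, 1 each of SFTPB, SFTPC, NAPSA and AGER, lay near the median on at least 1 array. Probe sets bind with different strength, so these places say nothing of the order of transcript amounts between genes.

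The stretches of DNA just before the start sites are shown because NKX2-1 and the forkhead factors act on such sites in their target genes. RefSeq's table for GRCh38.p14 held 11 start sites of 7 members, without SFTPC, SCGB1A1 and FOXA2. The 250 bases before each start were searched on both strands for CTCAAG, a core of the sequence NKX2-1 binds, and for the forkhead core, TGTTT followed by A or G and then by C or T. These motifs share no overlapping letters in the windows shown. Of the 11 windows, 2 held CTCAAG and 4 held a forkhead core, against 10.4% and 13.3% of 34943 windows of all genes. Shown are the upstream starts of both transcription factors of chromosome 14, of NAPSA as a secretory target and of MUC1 as the bright member, each 5′ to 3′ on the minus strand, with matches in capitals. A match is a description of letters, and a window without one says nothing of whether a factor binds there.
NKX2-1, chr14:36520233-36520482: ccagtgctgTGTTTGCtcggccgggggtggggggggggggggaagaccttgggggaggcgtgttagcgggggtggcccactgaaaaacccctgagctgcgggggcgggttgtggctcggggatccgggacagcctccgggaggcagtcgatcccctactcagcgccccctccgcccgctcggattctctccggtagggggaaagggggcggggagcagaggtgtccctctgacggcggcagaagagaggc
FOXA1, chr14:37595250-37595499: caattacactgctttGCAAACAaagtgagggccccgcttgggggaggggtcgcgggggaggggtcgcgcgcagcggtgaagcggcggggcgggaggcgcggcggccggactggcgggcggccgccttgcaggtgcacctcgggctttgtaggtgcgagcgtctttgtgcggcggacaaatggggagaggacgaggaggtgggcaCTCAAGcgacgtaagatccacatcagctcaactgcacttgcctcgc
NAPSA, chr19:50369303-50369552: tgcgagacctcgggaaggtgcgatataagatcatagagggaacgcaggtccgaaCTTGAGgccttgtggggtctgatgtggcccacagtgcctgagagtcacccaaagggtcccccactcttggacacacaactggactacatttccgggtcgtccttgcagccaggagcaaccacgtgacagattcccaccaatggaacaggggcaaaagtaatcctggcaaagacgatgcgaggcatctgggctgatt
MUC1, chr1:155192916-155193165: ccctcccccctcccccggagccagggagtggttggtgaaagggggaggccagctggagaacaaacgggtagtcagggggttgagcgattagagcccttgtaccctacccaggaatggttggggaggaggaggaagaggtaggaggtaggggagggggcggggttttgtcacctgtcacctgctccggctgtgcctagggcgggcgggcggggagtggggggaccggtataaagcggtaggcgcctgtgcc
SFTPB, 30 bases at chr2:85668264-85668293: tcagagcaaagACAAACActgaggtcgctg
The SFTPB stretch surrounds a forkhead core that begins 83 bases before the inner of its annotated starts. The NKX2-1 window shown holds TGTTTGC, and the NAPSA window shown holds the NKX2-1 core on the opposite strand. FOXA1 holds both kinds of core, and the MUC1 window holds neither. The windows of the other NAPSA start and of the outer SFTPB start, not shown, also hold neither.

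**Figure D1:**
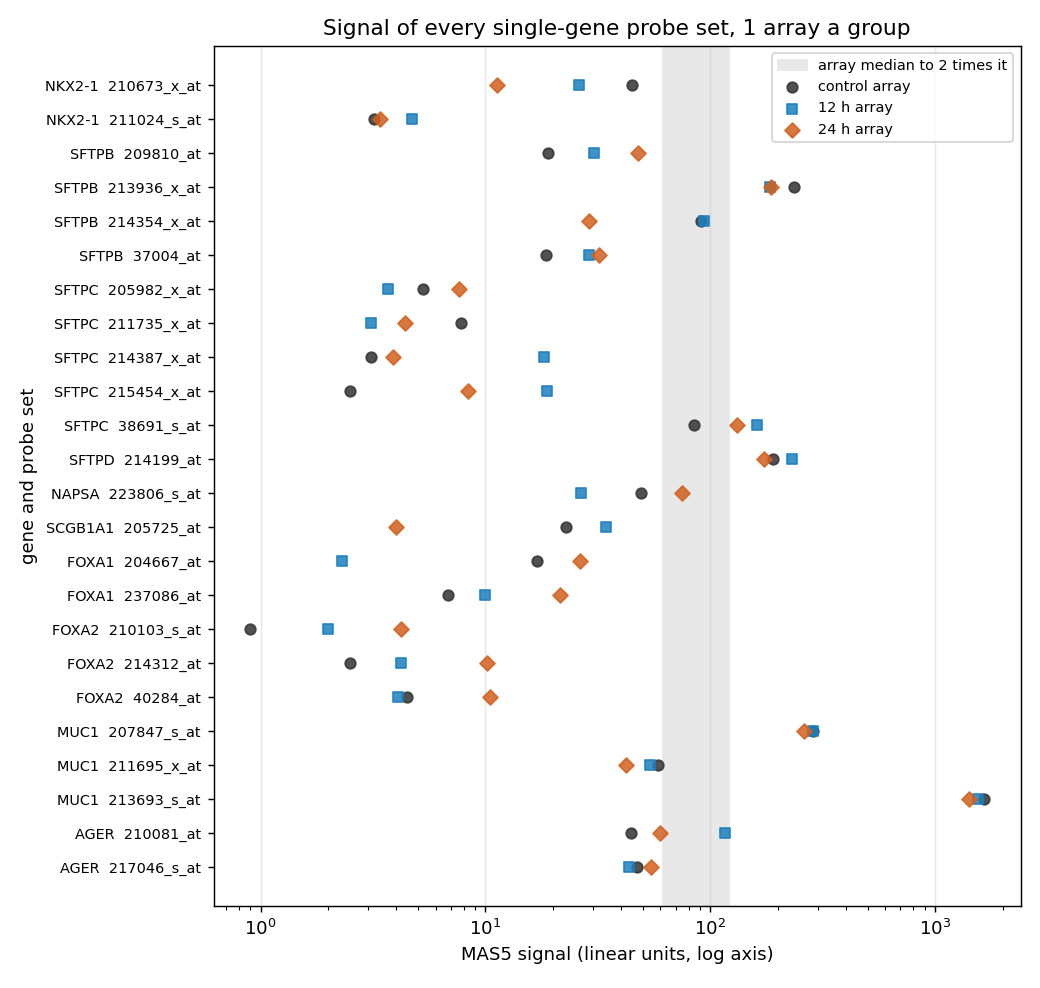
Signal of each of the 24 member probe sets (rows) on a log axis in MAS5 units, with a circle for the control, a square for 12 h and a diamond for 24 h, 1 array each; the grey band runs from the array median to 2 times it. Rows of NKX2-1, SCGB1A1, FOXA1 and FOXA2 lie left of the band on every array, and the brightest row, 213693_s_at of MUC1, runs from 1407.9 to 1644.2.

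The regulators were read at background throughout. NKX2-1 (Entrez gene 7080) had 2 probe sets. The probe set 210673_x_at read 44.8 in the control, 26 after 12 h and 11.3 after 24 h, and 211024_s_at read 3.2, 4.7 and 3.4. The first was lower on each treated array than in the control, the second was not, and all 6 readings lay under the median. Its highest reading stood at percentile 45.1 of the control array. The factor that sets the lung lineage was thus read under the median on every array of cells labelled as lung cancer. Detection calls were not used, so these readings do not show that its transcript was absent.

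FOXA1 (Entrez gene 3169) had 2 probe sets, of which 204667_at gave 16.9 (control), 2.3 (12 h) and 26.3 (24 h), and 237086_at gave 6.8, 10.0 and 21.4. FOXA2 (Entrez gene 3170) had 3 probe sets, which read 0.9, 2.0 and 4.2 (210103_s_at), 2.5, 4.2 and 10.2 (214312_at), and 4.5, 4.1 and 10.5 (40284_at). All 5 forkhead probe sets read higher at 24 h than in the control and higher at 24 h than at 12 h, while 3 of 5 read higher at 12 h than in the control. The log2 ratio of 24 h to control ran from 0.64 to 2.22 over the 5. Such ratios were common at this brightness. Among the 25425 probe sets at or below the median on all arrays, the middle 90% of the same log2 ratio ran from -2.96 to 2.91, and 46.5% differed 2-fold or more. For 24 h against 12 h that range ran from -2.91 to 2.97 and the 5 log2 ratios from 1.07 to 3.52, of which 204667_at of FOXA1, with its 12 h reading of 2.3, lay outside it. No reading of either gene passed the floor, so neither has a measured difference.

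Among the surfactant proteins, SFTPB (Entrez gene 6439) depended on the probe set read. The probe set 213936_x_at read 235.6 in the control, 183.8 after 12 h and 186.1 after 24 h, which is 3.82, 3.03 and 3.01 times the array medians. The treated arrays were lower by 0.36 at 12 h and 0.34 at 24 h on the log2 scale, or 1.28-fold and 1.27-fold. The probe set 214354_x_at read 90.7, 93.5 and 29, near the median on the first 2 arrays and under it at 24 h. The probe sets 209810_at and 37004_at stayed under the median, at 19.0, 30.4 and 47.8 and at 18.5, 28.8 and 32.0, and both read higher on each treated array. The 4 probe sets of SFTPB thus did not share a direction. The ending x marks probe sets whose probes can match other genes, and the pair without it gave background signal. With the median over its probe sets the SFTPB differences were 0.01 at 12 h and 0.00 at 24 h.

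SFTPC (Entrez gene 6440) had 5 probe sets, of which 4 read between 2.5 and 18.7 on every array. The fifth, 38691_s_at, read 84.3 in the control, 161.0 after 12 h and 131.6 after 24 h. It stood near the median in the control, and at 2.66 and 2.13 times it on the treated arrays. Its log2 differences from the control were 0.93 at 12 h and 0.64 at 24 h, or 1.91-fold and 1.56-fold higher, and the 24 h array was 0.29 below the 12 h array. The other probe sets went both ways at readings too low to follow, such as 7.8, 3.1 and 4.4 for 211735_x_at against 2.5, 18.7 and 8.4 for 215454_x_at. SFTPC had no measured value when the median of its probe sets stood for the gene. All 5 probe sets have the ending s or x, so none counted as specific to its transcript.

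SFTPD (Entrez gene 6441) had a single probe set, 214199_at, which read 190.3 in the control, 230.9 after 12 h and 173.5 after 24 h. All 3 readings lay over 2 times the median, between percentiles 63.5 and 67.3 of their arrays. The log2 difference was 0.28 at 12 h and -0.13 at 24 h, so the 12 h array lay above the control and the 24 h array below it. The 24 h array against the 12 h array was at -0.41. Among the 21031 probe sets over 2 times the median on all arrays, the middle 90% ran from -0.47 to 0.46 at 12 h, from -0.54 to 0.56 at 24 h and from -0.38 to 0.43 for 24 h against 12 h. SFTPD was inside this range in the first 2 comparisons and outside it in the third.

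NAPSA (Entrez gene 9476), also with a single probe set, read 49.1 in the control, 26.6 after 12 h and 74.9 after 24 h. It passed the median at 24 h alone, at 1.21 times it, which made the 24 h array at least 1.22-fold above both others once lower readings were set to the floor of 61.4. That floor is the 50th percentile of all values, and a difference from a reading under it is a bound. Without the floor, with a pseudocount of 1, the log2 differences from the control were -0.86 at 12 h and 0.60 at 24 h, on either side of 0. SCGB1A1 (Entrez gene 7356) read 22.9, 34.4 and 4.0 with its 1 probe set, under the median on all 3 arrays, so no difference was measured. Its log2 ratio of 24 h to 12 h without a floor was -3.10.

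AGER (Entrez gene 177) crossed the median at 12 h with 210081_at, which read 44.3, 115.9 and 59.8, and stayed under it with 217046_s_at, which read 47.3, 43.7 and 54.6. The 12 h reading of the first was at least 1.89-fold above the control, a log2 bound of 0.92, and its 24 h reading was again at the floor. The second probe set read lower at 12 h than in the control. The AGER value at 12 h moved from 0.38 with the median over its probe sets to 1.39 with the floor at the 25th percentile.

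MUC1 (Entrez gene 4582) was read over 2 times the median by 2 of its 3 probe sets. The signals of 213693_s_at were 1644.2 (control), 1556.2 (12 h) and 1407.9 (24 h), at percentiles 89.1, 88.7 and 87.7. The probe set 207847_s_at read 286.7, 286.7 and 262.0, and 211695_x_at read 58.3, 54.0 and 42.2, under the median on each array. The 24 h array was the lowest with all 3 probe sets. The log2 differences of the brightest were -0.08 at 12 h and -0.22 at 24 h, and that of the next was 0.00 and -0.13. They lay inside the middle 90% of all probe sets over 2 times the median. That class starts far below 213693_s_at, which stood at 26.6, 25.7 and 22.8 times the array medians. No range was taken at its own brightness.

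Probe sets of a gene that disagree were common on these arrays. Of 6984 genes with 2 or more single-gene probe sets and at least 1 over 2 times the median on all arrays, 2960 (42.4%) also had a probe set at or below the median on all 3. SFTPB and MUC1 are among these genes.

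With readings under the floor set to it, no member differed 2-fold or more in any comparison. AGER at 12 h and NAPSA at 24 h are bounds, which cannot show that these genes differed by less. Without a floor, AGER at 12 h had a log2 ratio of 1.39 and NAPSA one of 1.49 for 24 h against 12 h. At 12 h this was 0 of the 6 members above the floor on any array, where 0.867% of 12341 such genes differed 2-fold either way, 0.438% higher and 0.429% lower. At 24 h it was again 0 of 6, against 1.19% of all, 0.567% higher and 0.624% lower. For 24 h against 12 h it was 0 of 6, against 0.316%, 0.138% higher and 0.178% lower. At such shares, none among 6 genes is no result about the members. The 6 were SFTPB, SFTPC, SFTPD, NAPSA, MUC1 and AGER, and NKX2-1, SCGB1A1, FOXA1 and FOXA2 did not pass the floor. NAPSA and AGER passed it on 1 array alone, which fixes the direction of their difference, so the counts that follow only describe. At 12 h 3 were higher, 2 lower and NAPSA had no difference, with a median of 0.14 beside 0.00 over all such genes. At 24 h 2 were higher, 3 lower and AGER had no difference, with a median of -0.07 beside 0.00. For 24 h against 12 h 2 were higher and 4 lower, with a median of -0.22 beside -0.01. The comparisons with the control share that 1 array.

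**Figure D2:**
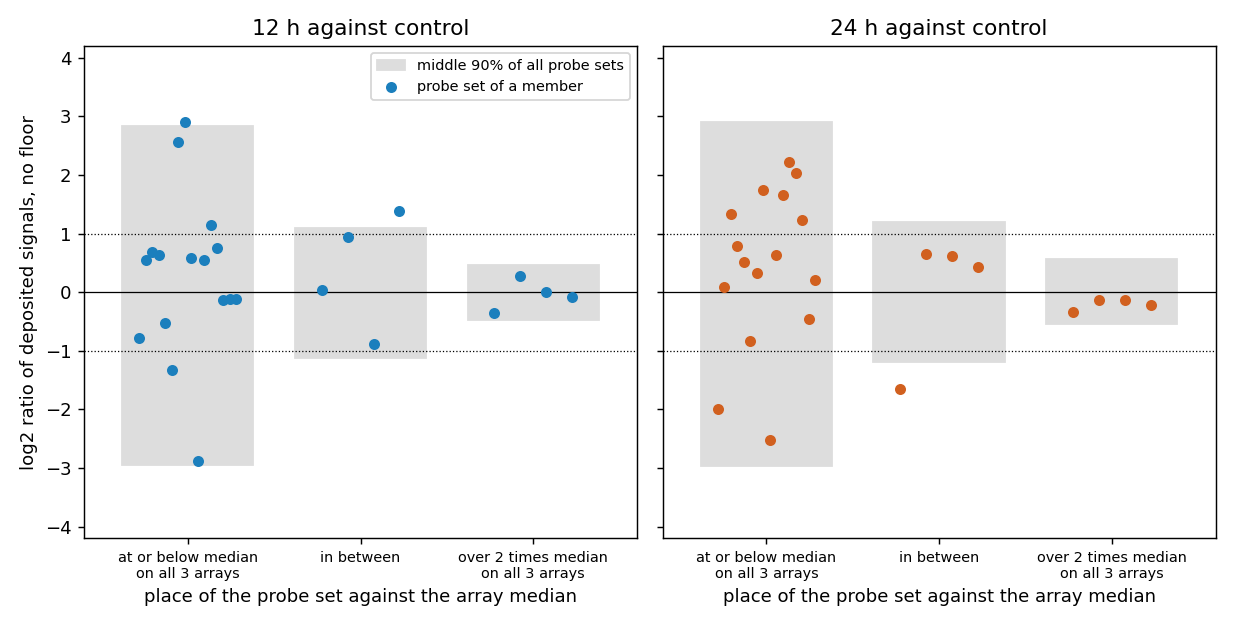
Log2 ratio of treated over control signal without a floor, at 12 h (left) and 24 h (right), for member probe sets (points) in 3 classes of brightness, with grey boxes for the middle 90% of all probe sets of that class and dotted lines at 2-fold. All 4 members' probe sets over 2 times the median lie inside the box at both times, and of the 16 at or below the median 15 do at 12 h and 16 at 24 h.

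Read without a floor, 6 of the 24 probe sets differed 2-fold at 12 h and 9 at 24 h, all of them at or below the median on at least 1 of the arrays. Over all probe sets at or below the median on all 3 arrays, 46.3% differed 2-fold at 12 h and 46.5% at 24 h. In the class in between the shares were 12.2% and 14.9%, and over 2 times the median on all 3 arrays 0.49% and 1.03%. The counts of member probe sets are thus no result about the members. Against the control, the readings outside the middle 90% of their class were SFTPC 215454_x_at at 12 h, AGER 210081_at at 12 h and SFTPB 214354_x_at at 24 h. For 24 h against 12 h they were 5 of 24: SCGB1A1 205725_at at -3.10, FOXA1 204667_at at 3.52, SFTPB 214354_x_at at -1.69, NAPSA 223806_s_at at 1.49 and SFTPD 214199_at at -0.41. By definition a middle 90% leaves the rest of its class outside, so a reading outside it is no result by itself. RNA integrity can be read from actin and GAPDH probe sets at both ends of the transcript. The ratio of 3′ to 5′ signal for ACTB was 4.95 (control), 5.38 (12 h) and 6.55 (24 h), and for GAPDH 1.21, 1.25 and 1.24. The part of RNA integrity in the members' differences was not tested.

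**Figure D3:**
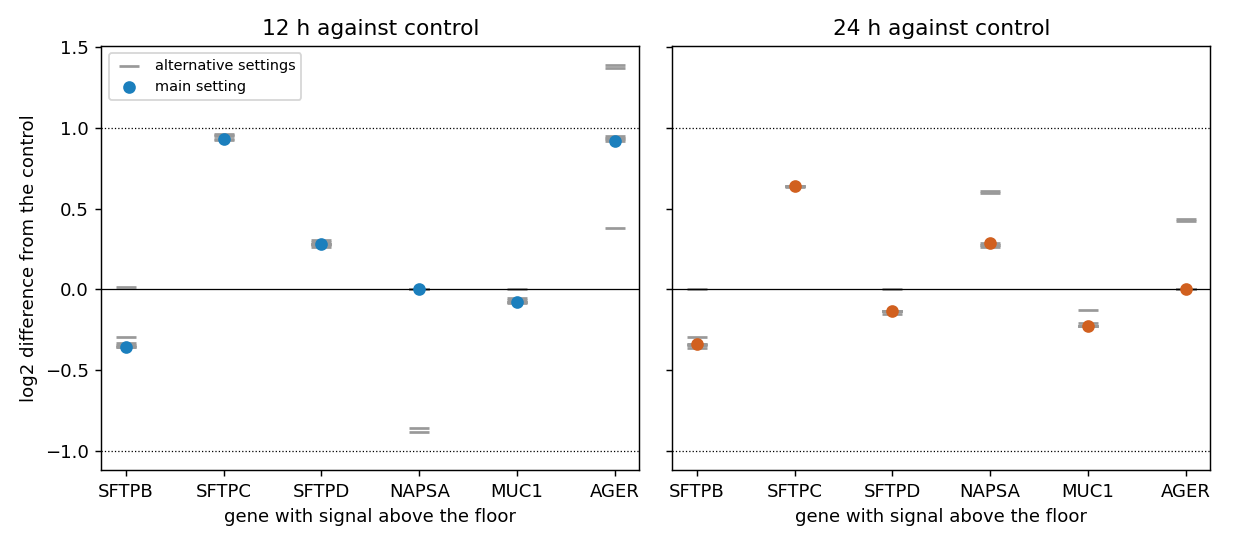
Log2 difference from the control at 12 h (left) and 24 h (right) for the 6 members above the floor on any array, with the main setting as a point, the alternative settings as grey dashes and dotted lines at 2-fold. SFTPC lies close to 0.93 at 12 h under the settings that measured it, which all read the same probe set. AGER spreads from 0.38 to 1.39.

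The members were set beside other genes of lung epithelium, read by their brightest probe set. Over 2 times the control median were 3 of 10 members, against 53.2% of all 19775 genes. Other alveolar type 2 and surfactant handling genes had 13 of 25 over it, a share of 52.0% that is near that of all genes. Above the floor on at least 1 array were 15 of the 25, or 60%, against 62.4% of all genes. The brightest of the list were the acyl-CoA binding protein DBI at 16865, the desaturase SCD at 14339 and the lysosomal protease CTSH at 3088. These are named for brightness alone and do not stand for the rest of the list. By the brightest probe set, none of the 15 above the floor differed 2-fold from the control, and the medians were 0.13 at 12 h and 0.08 at 24 h. Another probe set passed 2-fold for 2 of them. ETV5, an ETS factor of type 2 cells, was at 0.96 and 0.98 with its brightest and at up to 1.32 and 1.89 with others, and SCD at 0.19 and 0.29 and up to 1.10 and 1.29. Of all 12341 genes above the floor, 209 at 12 h and 370 at 24 h had a single-gene probe set that differed 2-fold, and no member did with readings under the floor set to it. On the lower side PIGR, the receptor that carries immunoglobulins across epithelium, was at -0.32 and -0.52. CD36, a fatty acid carrier, was at -0.35 and -0.56, with other probe sets at up to 0.03 at 12 h. The lecithin synthesis enzyme PCYT1A was higher, at 0.27 and 0.75.

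Alveolar type 1 genes other than AGER had 12 of 22 over 2 times the control median, led by S100A6 at 24953, and by the caveolins CAV1 at 15016 and CAV2 at 9398. Of 13 above the floor 11 were lower at 12 h and 9 at 24 h, with medians of -0.21 and -0.20. Over all 12341 genes above the floor 5973 were lower at 12 h and 6161 at 24 h. COL4A4, a basement membrane collagen, was the 1 that differed 2-fold, from 130.8 to 62.7 at 24 h, a log2 difference of -1.06 that ended near the floor. CLIC5 read 122.7, 20.6 and 27.3, so both treated readings lay under the floor and its difference from the control is a bound that can hide a larger one. It was the 1 gene of the 13 at the floor on 1 array of a pair. GPRC5A, a receptor of lung epithelium, went from 2007 to 1113 and 1058, and VEGFA from 3381 to 5004 and 5283.

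Airway secretory and mucous genes, the group of SCGB1A1, had 3 of 22 over 2 times the control median: the protease inhibitor SLPI at 14078, the secretory cell factor XBP1 at 2415 and the lipocalin LCN2 at 497.8. None of the 7 above the floor differed 2-fold, and the medians were 0.02 and 0.00. SPDEF, a factor of goblet cells, read 106.0 in the control and was at the floor on both treated arrays, and the mucus-folding protein AGR2 read 95.8, 67.1 and 67.5. Of the 7 genes, 4 were higher at 12 h and 3 at 24 h. XBP1 was at 0.43 and 0.63, LCN2 at 0.31 and 0.27, and CREB3L1, a factor of secretory cells, read 21.6, 81.9 and 78.1. The other probe set of XBP1 was at -0.32 at both times. SPDEF and CREB3L1 lay at the floor on 1 side at both times, which fixes their direction. Counted over the list, 2 of the 7 genes did so at 12 h and 3 at 24 h.

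The transcription factor list, which held neither NKX2-1 nor the forkhead members, had the highest share over 2 times the control median of the 10 lists, 28 of 43 genes. Among them were CEBPB at 12143, the Hippo effector YAP1 at 8989 and IRX3 at 5683. No gene of the 32 above the floor differed 2-fold, 22 were lower at 12 h and 21 at 24 h, and the medians were -0.11 and -0.17. SOX9, a factor of the growing lung tips, was at -0.48 and -0.76, the receptor FGFR2, entered with them, at -0.93 and -0.86, and CEBPG at 0.70 and 0.86. ID2, an inhibitor of helix-loop-helix factors, read 90.1, 114.0 and 35.8.

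**Figure D4:**
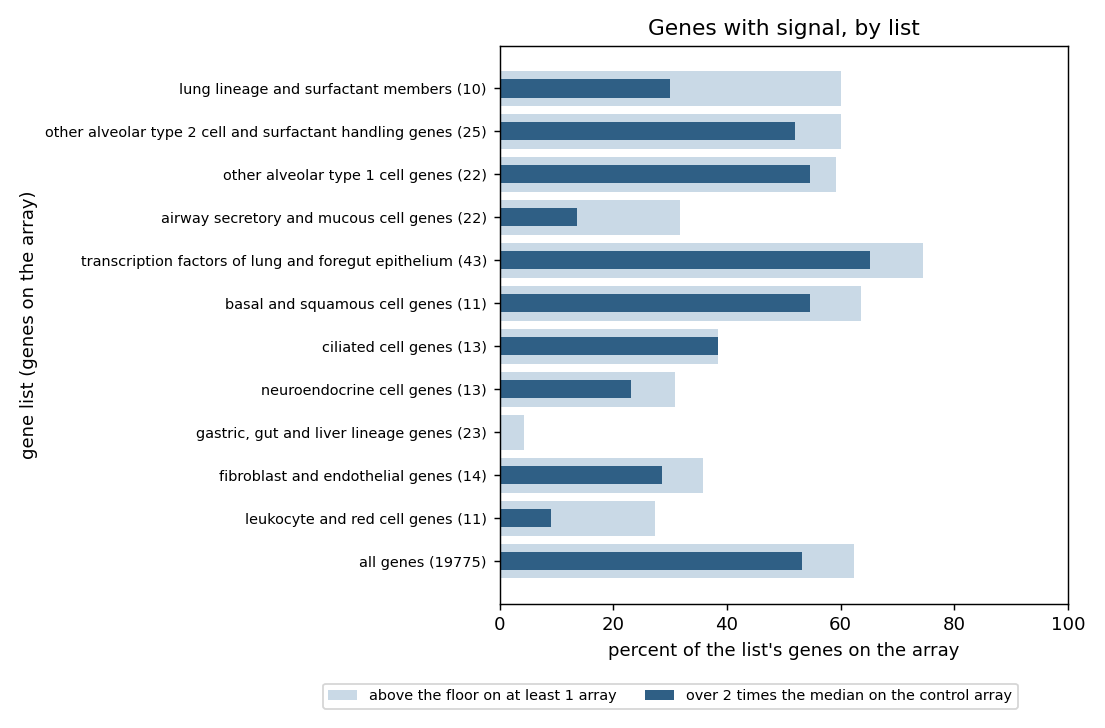
Share of each list's genes on the array, in percent, that lay above the floor on at least 1 array (light bars) and that lay over 2 times the median on the control array (dark bars), with the number of genes in brackets. The dark bars reach 65.1% for transcription factors, 52.0% for other type 2 cell genes and 3 of 10 genes for the members, and gastric, gut and liver genes have none.

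Markers of other cell types were read the same way. Basal and squamous genes had 7 of 11 above the floor, with the keratin KRT15 at -1.55 at 24 h, from 347.3 to 119.0, and the desmosomal cadherin DSG3 at 0.56 and 0.41. SERPINB5 was at 0.27 and 0.36, S100A2 at 0.23 and -0.10, and TRIM29 at 0.02 and -0.45. Another probe set of TRIM29 was at -0.13 at 12 h. Ciliated cell genes had 5 of 13. CAPS, at 1796 in the control, was at 0.01 and 0.07, the factors RFX2 and RFX3 at -0.20 and -0.23 and at -0.42 and -0.42, and the dynein genes DNAI1 and DNAH5 at -0.54 and -0.56 and at -0.12 and -0.49. Probe sets did not all share these directions. Others of RFX2 were at up to 0.15 and 0.41, and of RFX3 at up to 0.41 at 12 h. At 24 h another of DNAH5 was at 0.14, and others of CAPS were as low as -0.08. Neuroendocrine genes had 4 of 13. ROBO1, at 3800 in the control, was at 0.04 and -0.02, the ubiquitin hydrolase UCHL1 at 0.49 and 0.78, and the granule proteins CHGA and CHGB at 0.45 and -0.41 and at 0.03 and -0.21. Gastric, gut and liver genes had 1 of 23, TTR, which read 46.6, 77.2 and 91.1. The brightest in the control, CTSE, AFP and LGALS4, read 51.2, 49.1 and 48.8 there, under the median. Fibroblast and endothelial genes had 5 of 14, all lower at both times by their brightest probe set, with medians of -0.27 and -0.56. They were COL3A1 (-0.43 and -0.58), COL1A1 (-0.08 and -0.56), FAP (-0.14 and -0.41), PECAM1 (-0.48 and -0.62) and TEK (-0.27 and -0.30). The probe sets of COL1A1 did not share a direction, and others of it were at up to 0.87 at 12 h and 0.50 at 24 h. Leukocyte and red cell genes had 3 of 11: CSF1R, ITGAM and HBB, which read 198.4, 73.7 and 66.2 in the control. All cultures were of the NCI-H1650 line, so the name of a list does not mean that cells of that type were present. RNA of whole cultures cannot tell fewer cells with a transcript from less of it per cell. The part of these markers in the members' values was not tested. Over these 10 lists together 0 of 92 genes above the floor differed 2-fold at 12 h and 2 at 24 h by the brightest probe set. Of all 12341 genes above the floor 0.867% and 1.19% did. At such shares these counts, and those of each list, are no result about the lists. Of the 92, 8 at 12 h and 10 at 24 h lay at the floor on 1 array of the pair, so their values are bounds with a direction fixed by it.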

How the data were processed

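RNA of 3 NCI-H1650 cultures, 1 a group, was read on Affymetrix arrays. Per the submitters' processing notes the authors used MAS5, and the deposited values are signal intensity on a linear scale; the MAS5 version is not given in the sources used here. Trimmed means were 500.1 on each array, so no further scaling was applied, and the number of arrays limits the precision. Detection calls were not used here. Of 54675 probe sets the platform annotation gave 1 gene for 41097, several for 1801 and none for 11777, and only the first were named.

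A gene took its single-gene probe set with the highest mean log2 signal. A floor was set at the 50th percentile of all values (61.4), log2 differences were taken between pairs of arrays, and genes above the floor on at least 1 array were counted at 2-fold. Without replicates no test was run. The steps were tested on simulated data with changes planted in genes well above the floor. Recovery of a change near the floor was not tested. All members were named; from other lists, the 3 brightest in the control, up to 4 with the highest mean difference, every gene 2-fold from the control, and all measured genes where 5 or fewer were. Members and lists were chosen with earlier results of these data known. The 8 alternatives changed scaling, floor and probe set. Python 3.11.15, R 4.3.3 and limma 3.58.1 were used.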

Additional observations from a re-analysis of the deposited data

Results flagged for a closer look

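SFTPD is listed because its array at 12 h lay above the control and its array at 24 h below it, with log2 differences of 0.28 and -0.13. Each time is 1 array, and the difference between the times was not tested.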

How the results depend on the processing

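With median centring, quantile normalization and cyclic loess, 0 members differed 2-fold in each of the 3 comparisons, as with the settings described. The same held with a floor of 192.4, the 65th percentile, with the median over probe sets, and with transcript-specific probe sets, although these left 3, 5 and 2 members above the floor. Transcript-specific probe sets, those without the ending s, x or a, left SFTPD and AGER. Every probe set of NKX2-1, SFTPC, NAPSA and MUC1 has the ending s or x. A lower floor brought background readings in. Lowering it to the 25th percentile (12.5), 1 member (AGER) differed 2-fold at 12 h, 1 (NKX2-1) at 24 h and 3 (NKX2-1, NAPSA and SCGB1A1) for 24 h against 12 h, of 9 above it, while 1483, 1604 and 1442 of 17818 genes did. With no floor and a pseudocount of 1 these were 1, 4 and 5 of 10 members, while 16.9%, 17.5% and 17.2% of all genes differed 2-fold. Over the 10 other lists the counts of 0, 2 and 0 became 14, 26 and 14 of 177 genes with the floor at the 25th percentile and 37, 45 and 41 of 197 without one. The count at 24 h was 0 with the floor at the 65th percentile and 1 with the median over probe sets. Members above the median on any array numbered 6, and 3 of them (SFTPB, SFTPD and MUC1) passed the 65th percentile. SFTPB turned from -0.36 to 0.01 at 12 h with the median over probe sets. That median takes in 209810_at and 37004_at, which stayed under the array median. SFTPC was above the floor under 5 of 8 alternatives, and its 12 h difference ran from 0.93 to 0.96. All 5 read its brightest probe set on the same arrays, so the narrow range says nothing of its other probe sets. No paired analysis was possible because each group held 1 array.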
